A study of Mus musculus with 2 samples.

Results

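Among single cells of mouse bone marrow, 287 barcodes reached a fixed minimum of RNA of major histocompatibility complex (MHC) class II. They held little RNA that marks B cells, C1q macrophages, plasmacytoid dendritic cells, nonclassical monocytes or neutrophils. They are the cells in which conventional dendritic cells of the marrow should be found, and they were 287 of 23794 barcodes over the depth limits and of 31569 barcodes in all. The members were chosen by their own counts: at least 1000 unique molecular identifiers (UMIs, each standing for 1 captured transcript), under 10% mitochondrial UMIs, at least 6 UMIs of H2-Aa, H2-Ab1 and H2-Eb1 together, at most 1 UMI of Cd79a, Cd79b and Ms4a1, at most 2 of C1qa, C1qb and C1qc, 0 of Siglech, at most 1 of Ace and Adgre4, and under 5% of UMIs from S100a8 and S100a9. The levels of these genes therefore describe the choice and are no result.

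The study set out to compare hematopoietic cells of the marrow with and without MYC overexpressed from the stem cells onward, and made 1 droplet-based 3′ library per group. The control library, labelled WT, came from mice of genotype Mx1Cre+/-;Rosa26+/+, and the other, called the MYC library, from Mx1Cre+/-;Rosa26LSL-MYC/LSL-MYC. Both groups carry Mx1Cre, a Cre recombinase under an interferon-inducible promoter that acts in many cell types of the marrow, and the MYC genotype has, on both Rosa26 alleles, a MYC transgene that is silent until Cre excises a stop cassette. The labels used here give neither the number of mice, their age or sex, nor any treatment. With 1 library per group no test between genotypes was possible: every interval below is a 95% interval of counting error alone, and genotype, animal and library cannot be told apart.

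Conventional dendritic cells take up antigen and display its peptides on MHC class II to CD4+ T cells. The peptide route needs the invariant chain Cd74, which escorts new class II molecules, cathepsin S (Ctss), which trims Cd74, and H2-DM, which exchanges the remaining fragment for a peptide, and the coactivator Ciita switches these genes on. Cells of the cDC1 subset bear Xcr1 and Clec9a and depend on Irf8 and Batf3, whereas cells of the cDC2 subset bear Sirpa, Clec10a and, in part, Cd209a, and many depend on Irf4. The receptor Flt3 marks their precursors in marrow.

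The control library held 131 members, 0.989% of its barcodes over the depth limits (interval 0.827 to 1.17). The MYC library held 156, or 1.48% (1.26 to 1.73). The share was 1.5 times as high in the MYC library, a difference of 0.491 percentage points (0.203 to 0.788). The steps of the choice removed very different numbers: 1190 control barcodes and 485 of the MYC library passed the MHC class II minimum, 458 and 289 were left after the B-cell genes, 403 and 227 after C1q, 229 and 198 after Siglech, 147 and 173 after Ace and Adgre4, and 131 and 156 after S100a8 and S100a9. Of the populations gated beside the members, B-type barcodes were 9.03% of control barcodes and 2.2% of those of the MYC library, plasmacytoid-type barcodes 1.91% and 0.588%, nonclassical-monocyte-type barcodes 2.03% and 1.26%, and C1q-rich macrophage-type barcodes 0.483% and 4.07%. Shares add up to a whole, so a lower share of one population raises the others.

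**Figure D1:**
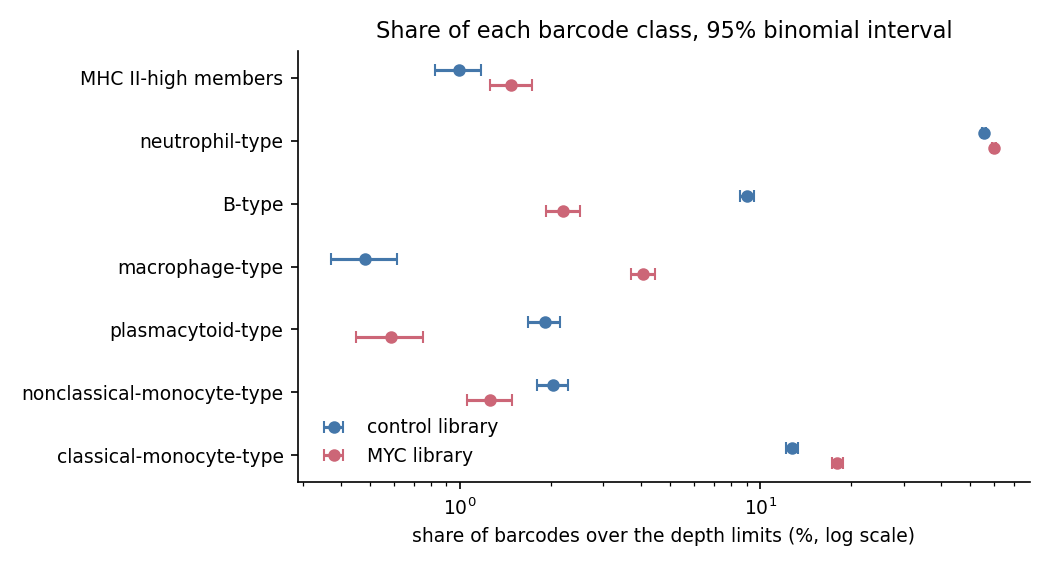
Share of each barcode class (horizontal axis, percent of barcodes over the depth limits, log scale) in the control and the MYC library, with exact 95% binomial intervals of counting error. The MHC II-high members were 0.989% (control) and 1.48% (MYC library), and the plasmacytoid-type barcodes 1.91% and 0.588%.

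Members were deeper than the libraries' other barcodes, with a median of 9594 UMIs for the control's and 10650.5 for the MYC library's beside 6704 and 7570 over all barcodes over the limits. Their mitochondrial share had a median of 3.04% and 3.64%. The summed counts rest on 1544930 UMIs of the control members and 1833185 of the MYC members. The libraries shared 97 barcode sequences, none of which was a member in both. A doublet caller marked 4 control members and no member of the MYC library, where it marked 0 of 12896 barcodes and so did not work. Among the barcodes with the 10% highest doublet scores were 28 of 131 control members and 20 of 156 members of the MYC library, beside about 10% of all barcodes scored. The feature named MYC, whose sequence is not given in the sources used here, had 0 UMIs in control members and 3 in MYC members, too few for a fold. In neutrophil-type barcodes, the largest class, MYC had 0 UMIs in 7379 control barcodes and 229 in 6350 barcodes of the other library. These counts are not scaled, and the 3 UMIs of the members come from only 156 barcodes. Endogenous Myc was at 50.5 CPM (UMIs of a gene scaled to 1000000 UMIs in all) among control members and 32.2 CPM among MYC members.

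The MHC class II sum that chose the members ranged from 6 to 311 UMIs per control member, with a median of 50, and from 6 to 458 per MYC member, with a median of 27.5. At the edge of the choice, 13 control members and 15 members of the MYC library had 6 or 7 class II UMIs, and 26 and 33 further barcodes that met every other condition had 4 or 5. Inside the edge Cd74 stood at 411 and 982 CPM, and outside it at 323 and 455 CPM. Cd209a was at 0 in the members just inside, in both libraries.

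The label held for part of the members. Clustered together, the members fell into 9 groups, numbered 0 to 8, and 5 of these were named dendritic-like from markers other than the class II genes and the genes of the choice: 82 control members (62.6%, 53.7 to 70.9) and 87 members of the MYC library (55.8%, 47.6 to 63.7). Clusters 0, 2, 3 and 4 were led by Cd209a, a lectin related to DC-SIGN that marks a fraction of cDC2, together with Clec10a. The leading genes of cluster 2 also included Cxcl10 and the interferon response gene Ifit3. Cluster 7 was led by Xcr1, Clec9a and Tlr3, the genes of cDC1, with 236 CPM of Xcr1, 199 CPM of Clec9a and 1649 CPM of Irf8. These clusters were made from the same counts, so their leading genes describe them and are not tested.

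Clusters 5 and 8 were named stem or multipotent progenitor-like. In cluster 8 Hlf, a factor of stem cells, was at 395 CPM, and Mecom at 199 CPM. Cluster 5 was led by Mmp14 and Acp5 (605 CPM), and took its name from Mecom (31.9 CPM), Adgrl4 (95.7 CPM) and Meis1 (65.2 CPM). Its members had a median of 22636 UMIs, the highest of all clusters, and so each weighed more in the sums. Clusters 5 and 8 held 18 control members (13.7%), 14 of them in cluster 5, and 29 of the MYC library (18.6%), 18 of them in cluster 8. Their class II sums were low, with medians of 7.5 and 11 UMIs beside 102 and 77 in the dendritic-like clusters. Clusters 1 and 6 had Apoe and Cx3cr1 among their leading genes, met no naming rule and stay unnamed, with 31 and 40 members. In these unnamed clusters Zbtb46, a factor of conventional dendritic cells and their precursors, was at 0 CPM in both libraries and Xcr1 and Clec9a were at 0. Their summed classical monocyte markers reached 7341 and 5575 CPM, beside 3541 and 2341 CPM in the dendritic-like clusters.

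Members named dendritic-like were 0.619% of the control's barcodes over the limits and 0.825% of the MYC library's. The difference of 0.206 points had an interval of -0.01 to 0.44, which includes 0. The libraries filled different clusters of this class: the control mainly clusters 3 (30 members) and 2 (26), and the MYC library clusters 4 (29), 0 (26) and 7 (21). Since the genes that define the clusters also differed between the libraries, these numbers are not read as a change in cell numbers. Values for the dendritic-like members are given below beside those of all members, and whether the mix of clusters accounts for a difference was not tested except where values within clusters are given.

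**Figure D2:**
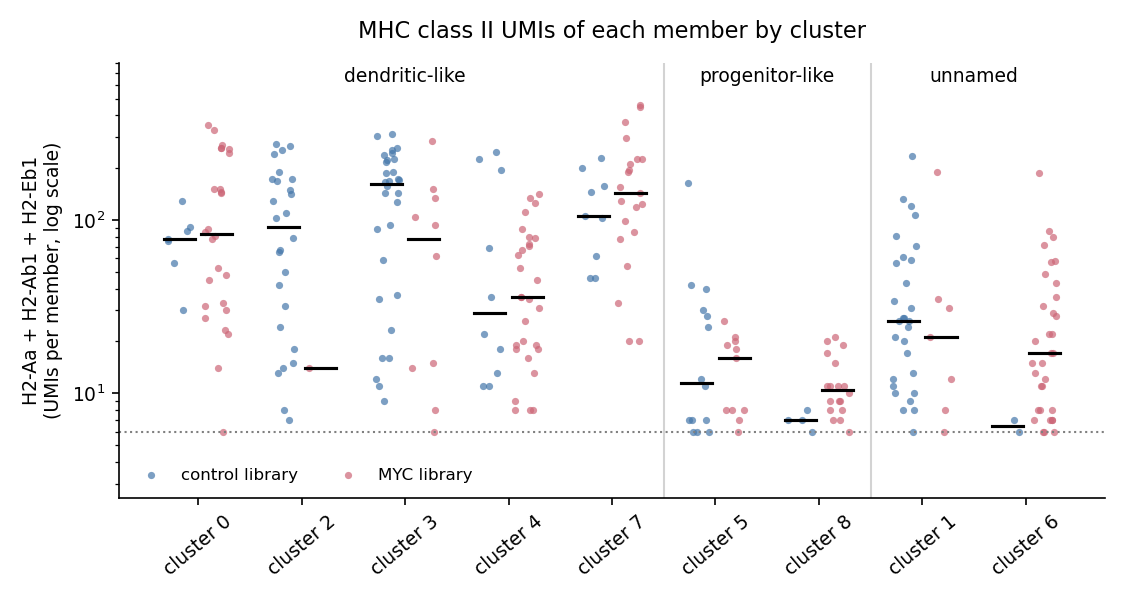
UMIs of H2-Aa, H2-Ab1 and H2-Eb1 in each member (vertical axis, log scale) by cluster and library; each point is 1 member, black bars are medians and the dotted line is the minimum of 6 that chose the members. The progenitor-like clusters lie near the minimum, with medians of 7.5 UMIs (control) and 11 UMIs (MYC library).

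Compared with all other barcodes of the same library, the 20 genes outside the choice that led the members included 4 of the class II list (Ciita, Cd74, H2-DMb1 and H2-DMa) and the dendritic genes Flt3, Clec10a and Batf3. Ciita was 16.1 times as high in members of the control and 31.4 times in the MYC library, Cd74 14.5 and 24.3 times, and H2-DMb1, a chain of H2-DM, 12.9 and 13.5 times. Flt3 was 11.4 and 16.3 times as high, Clec10a 16.3 and 11.3 times, and Batf3 25.8 and 5.62 times. The others included Slamf8 and Slamf7, receptors of the SLAM family, Dpp4, a surface peptidase, and genes of no dendritic list such as Ece1, Ckb, Aif1 and Ccnd1. Cd74 and H2-DMb1 are co-expressed with the class II genes of the choice and were bound to be high.

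Markers of other cell types were present at different levels. The 9 B-lineage markers outside the choice summed to 28.5 CPM in control members and 10.4 CPM in the MYC library, with 1 and 4 of them at 0, beside 1832 and 701 CPM in B-type barcodes. The 11 plasmacytoid markers outside the choice summed to 311 and 325 CPM beside 8313 and 8039 CPM in plasmacytoid-type barcodes. The 8 nonclassical monocyte markers outside the choice summed to 372 and 316 CPM beside 1724 and 1282 CPM in their own class and 290 and 207 CPM in neutrophil-type barcodes, so this sum was no lower than in unrelated cells. Erythroid markers, which were no part of the choice, summed to 3288 and 816 CPM, and the 10 neutrophil markers other than S100a8 and S100a9 to 1383 and 1675 CPM. The 10 stem and multipotent progenitor markers summed to 271 and 482 CPM, and to 83.8 and 65.6 CPM in the dendritic-like members. The 10 classical monocyte markers summed to 3198 and 2501 CPM over all members.

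A gene was called different when its summed level differed at least 2-fold between the libraries and the interval of the ratio excluded 1. Among 6657 genes with at least 50 UMIs over all members, 221 (3.32%) were called higher in the MYC library and 313 (4.7%) lower. Among 4131 such genes in the dendritic-like members, 381 (9.22%) were called higher and 242 (5.86%) lower. The non-coding gene Gm42418, which overlaps a ribosomal RNA repeat and lies at chr17:39846958-39848788 of GRCm38, took 237422 CPM of control members and 121617 CPM of MYC members. Without it in the totals 110 genes were called higher and 562 lower, and the median log2 ratio of all genes moved from -0.07 to -0.27. A difference of about that size in either direction thus depends on the scaling. Single cells also carried weight: with each gene's richest cell of either library left out, 192 of the 221 higher calls and 215 of the 313 lower calls remained. Of the stem and multipotent progenitor markers, 3 of 9 tested (Adgrl4, Cd34 and Meis1) were called higher, against 3.32% of all genes, and of the classical monocyte markers 0 of 10 were called.

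**Figure D3:**
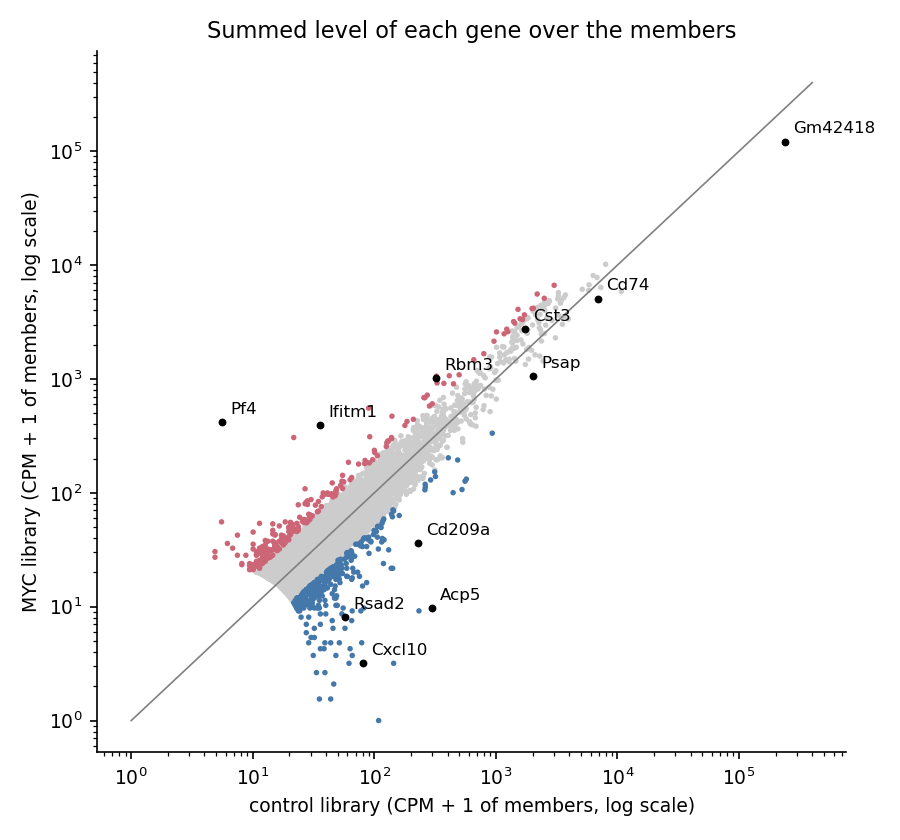
Summed level of each of the 6657 genes tested over control members (horizontal axis) and members of the MYC library (vertical axis), both as CPM + 1 on log scales; red and blue points were called higher and lower in the MYC library, black points are labelled and the line marks equal levels. Cd209a, Acp5, Rsad2 and Cxcl10 lie below the line and Ifitm1 and Rbm3 above it, and 1 cell gave nearly all UMIs of Pf4.

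No gene of MHC class II presentation passed the call. The list has 11 genes with enough counts outside the choice, and none was called in all members or in the dendritic-like ones. Of all genes 3.32% were called higher and 4.7% lower, and 9.22% and 5.86% in the dendritic-like members. With 11 genes, 0 calls are near these shares. The median log2 ratio of MYC over control was -0.20 (-0.57 to 0.51) beside -0.07 over all genes. Cd74 stood at 6930 CPM in control members and 5066 CPM in MYC members (log2 ratio -0.45, -0.49 to -0.41), and per member its median was 6941 and 4233 CPM. Ciita stood at 204 and 137 CPM (-0.57, -0.81 to -0.33). The 2 main H2-DM chains had the opposite sign, with H2-DMa at 320 and 415 CPM (0.37, 0.21 to 0.54) and H2-DMb1 at 218 and 312 CPM (0.52, 0.32 to 0.71), though H2-DMb1 was at -0.24 (-0.67 to 0.19) when each member was thinned to 2000 UMIs. H2-Oa, which restrains H2-DM, was at 54.4 and 30.0 CPM (-0.86, -1.38 to -0.35). Ifi30, a lysosomal reductase that opens disulfides of antigens, was at 607 and 836 CPM. Of the class II genes of the choice, H2-Aa (chr17:34282744-34287823) was at 3089 and 2295 CPM, H2-Ab1 (chr17:34257689-34269419) at 2367 and 2150 CPM and H2-Eb1 (chr17:34305867-34316674) at 1853 and 1492 CPM, given as a description.

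Of 18 genes of MHC class I presentation 1 was called higher, near the 3.32% of all genes, the immunoproteasome subunit Psmb8, at 298 and 604 CPM (1.02, 0.86 to 1.18). In the dendritic-like members Psmb8 was at 374 and 729 CPM, a ratio just under 2-fold (0.96), and was not called. Its partner Psmb9 was at 142 and 261 CPM (0.88, 0.65 to 1.12). Among the dendritic-like members 1 of 17 was called, near the 5.86% of all genes called lower: Nlrc5, the coactivator of class I genes, at 58.8 and 16.7 CPM (-1.82, -2.74 to -0.97). The class I heavy chain H2-K1 was at 915 and 709 CPM in all members and 1029 and 573 CPM in the dendritic-like ones.

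Of the 9 conventional dendritic markers outside the choice, 3 were called lower in the MYC library, against 4.7% of all genes: Cd209a, Itgax and Zbtb46. In the dendritic-like members Cd209a was the only one called of 8 tested, against 5.86% of all genes called lower there. Cd209a, a C-type lectin gene at chr8:3743397-3748984 of GRCm38, had the largest difference of them. It had 350 UMIs in control members and 64 in members of the MYC library, 227 and 34.9 CPM, a log2 ratio of -2.70 (-3.11 to -2.31). At least 1 UMI was found in 49 of 131 control members (37.4%, 29.1 to 46.3) and in 26 of 156 members of the MYC library (16.7%, 11.2 to 23.5). With each member thinned to 2000 UMIs, which left out 4 control members and 3 of the MYC library, the shares were 26.8% and 8.50%. Background was far lower: 0.474% and 0.173% of neutrophil-type barcodes, with median depths of 5428 and 6743 UMIs, and 0.920% and 0.431% of B-type barcodes had a UMI. Cd209a was in the marker list given for these cells, which was drawn up with results of these data known.

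The lower Cd209a was also seen within clusters. In cluster 0 the control had 33 UMIs in 7 members and the MYC library 26 in 26 members, 660.1 and 97.0 CPM. In cluster 3 the control had 148 UMIs in 30 members and the MYC library 1 in 10 members, 557 and 18.9 CPM. In cluster 4 the levels were 347 and 82.9 CPM (-2.07, -2.75 to -1.40). Cluster 7 had 4 and 5 UMIs, with an interval from -3.28 to 1.27. Plasmacytoid-type barcodes had 70.0 CPM of Cd209a in control cells and 23 CPM in MYC cells, and nonclassical-monocyte-type barcodes 16.2 and 22.8 CPM.

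**Figure D4:**
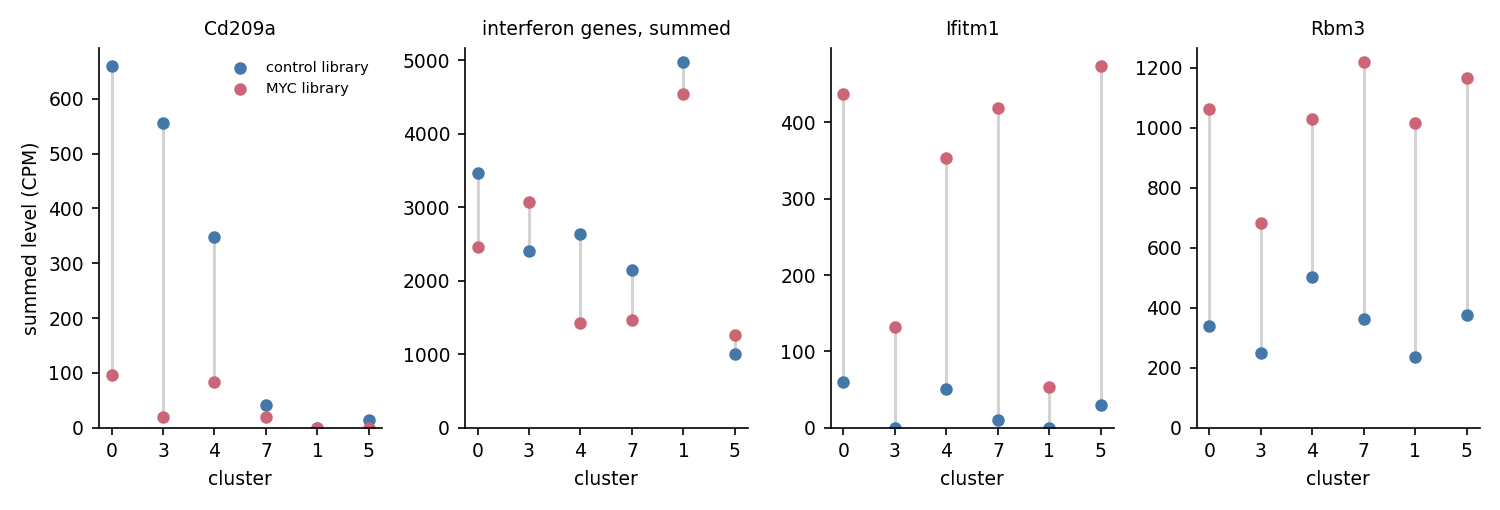
Summed level in CPM (vertical axes, starting at 0) of Cd209a, the interferon response genes, Ifitm1 and Rbm3 in the 6 clusters with at least 7 members of each library; blue points are the control, red points the MYC library and grey lines join them. Cd209a is lower and Ifitm1 and Rbm3 are higher in the MYC library wherever they were found, whereas the interferon genes are lower in 4 clusters and higher in 2.

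Other lectins and uptake receptors pointed the same way with smaller differences. All 9 tested were below a log2 ratio of 0, with a median of -0.66 (-1.36 to -0.26), and 2 were called, against 4.7% of all genes: Cd209a and Mrc1, the mannose receptor, at 50.5 and 19.1 CPM (-1.40, -2.02 to -0.81). Mrc1 also marks macrophages, and the 3 macrophage markers tested (Adgre1, Axl and Mrc1) were all called lower, the 11 macrophage markers outside the choice summing to 181 and 62.7 CPM with 0 and 1 of them at 0. The part of macrophage RNA in the Mrc1 value was not tested. Clec4a1, a lectin of myeloid cells, was at 117 and 66.0 CPM, and Clec12a, a receptor for uric acid crystals, at 164 and 97.1 CPM. Clec10a, which binds galactose-type sugars, was at 113 and 76.4 CPM (-0.57, -0.90 to -0.24) and had the opposite sign, at 0.20 (-0.28 to 0.68), when members with any UMI of the other types' genes were left out. In the dendritic-like members Clec4a1 was called too, at 135 and 49.0 CPM. The list's median was -0.39 (-2.64 to 0.095) in these members without cluster 2 and -0.57 (-2.10 to 0.19) in members with 0 UMIs of the other types' genes, both with intervals that include 0.

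Of 10 cDC1 markers tested 1 was called lower, against 4.7% of all genes, namely Cd24a, an antigen shared with erythroid and B-lineage cells, at 262 and 111 CPM in all members but 123 and 129 CPM in the dendritic-like ones. Xcr1 was at 35.0 and 18 CPM (-0.96, -1.63 to -0.31) and Clec9a, a receptor for dead cells, at 39.5 and 24.5 CPM (-0.69, -1.27 to -0.11). At least 1 UMI of either was found in 24 control members (18.3%, 12.1 to 26) and 25 members of the MYC library (16.0%, 10.6 to 22.7), and the interval of the difference, -11.7 to 6.86 points, includes 0. In neutrophil-type barcodes the shares were 0.989% and 0.630%. Cd209a was found together with Xcr1 or Clec9a in 13 control members and 3 of the MYC library, while 71 and 108 members had none of these 3 genes.

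Among 18 transcription factors of dendritic cells, 2 were called lower and none higher, against 4.7% and 3.32% of all genes, with a median of -0.51 (-0.83 to 0.38). Irf4, needed by many cDC2, was at 49.8 and 17.5 CPM (-1.51, -2.16 to -0.90), and 24 of its 77 control UMIs came from 1 cell. Zbtb46 was at 22.7 and 10.4 CPM (-1.13, -2.02 to -0.28). Others of the list were not called: Notch2, a receptor that directs cDC2 fate, was at 82.9 and 44.2 CPM, its effector Rbpj at 141 and 83.5 CPM, and Zeb2 at 531 and 298 CPM. In the dendritic-like members 4 of 17 were called lower, against 5.86% of all genes, namely Irf4, Notch2, Zeb2 and Runx3, and Zbtb46 was not called (-0.82, -1.74 to 0.069). Within clusters 0, 3, 4 and 7 Zeb2 was at -0.14, -0.09, -0.05 and -0.73, each with an interval that includes 0. It was lower in all 6 shared clusters, with an interval below 0 in cluster 1 only. Irf8, Id2 and Spi1, which cDC1 or their precursors need, had the opposite sign: Irf8 was at 259 and 373 CPM (0.53, 0.35 to 0.71), Id2 at 124 and 179 CPM and Spi1, encoding PU.1, at 260 and 366 CPM. Within the clusters richest in Irf8 its sign was the reverse, at -0.15 (-0.41 to 0.12) in cluster 7 and -0.50 (-0.89 to -0.10) in cluster 4. In clusters 0, 1, 3 and 5 Irf8 was at 0.95, 0.48, 0.60 and 0.21. None of the 6 shared clusters had an interval above 0. The integrin Itgax, whose product CD11c is the common surface mark of dendritic cells, was called lower, at 39.5 and 19.1 CPM (-1.05, -1.69 to -0.43).

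Among 14 growth factor and cytokine receptors, against 4.7% of all genes called lower, 1 was called: Csf3r, the receptor of G-CSF, at 48.5 and 18.5 CPM (-1.39, -2.02 to -0.79). In the dendritic-like members Csf3r was not called, and 1 of 12 was called lower, Il10ra, near the 5.86% of all genes. Flt3 was at 89.97 and 91.1 CPM (0.02, -0.31 to 0.35) in all members and at 146 and 117 CPM in the dendritic-like ones. Csf2ra and Csf2rb, the chains of the GM-CSF receptor, were at 138 and 126 CPM and at 99.0 and 61.6 CPM. Csf1r was at 184 and 136 CPM (-0.44, -0.69 to -0.19), but at 0.31 (-0.23 to 0.88) in the dendritic-like members without cluster 2. The interferon receptor genes Ifnar1 (57.6 and 60.6 CPM) and Ifnar2 (140 and 152 CPM) had intervals that include 0 on the log2 scale.

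**Figure D5:**
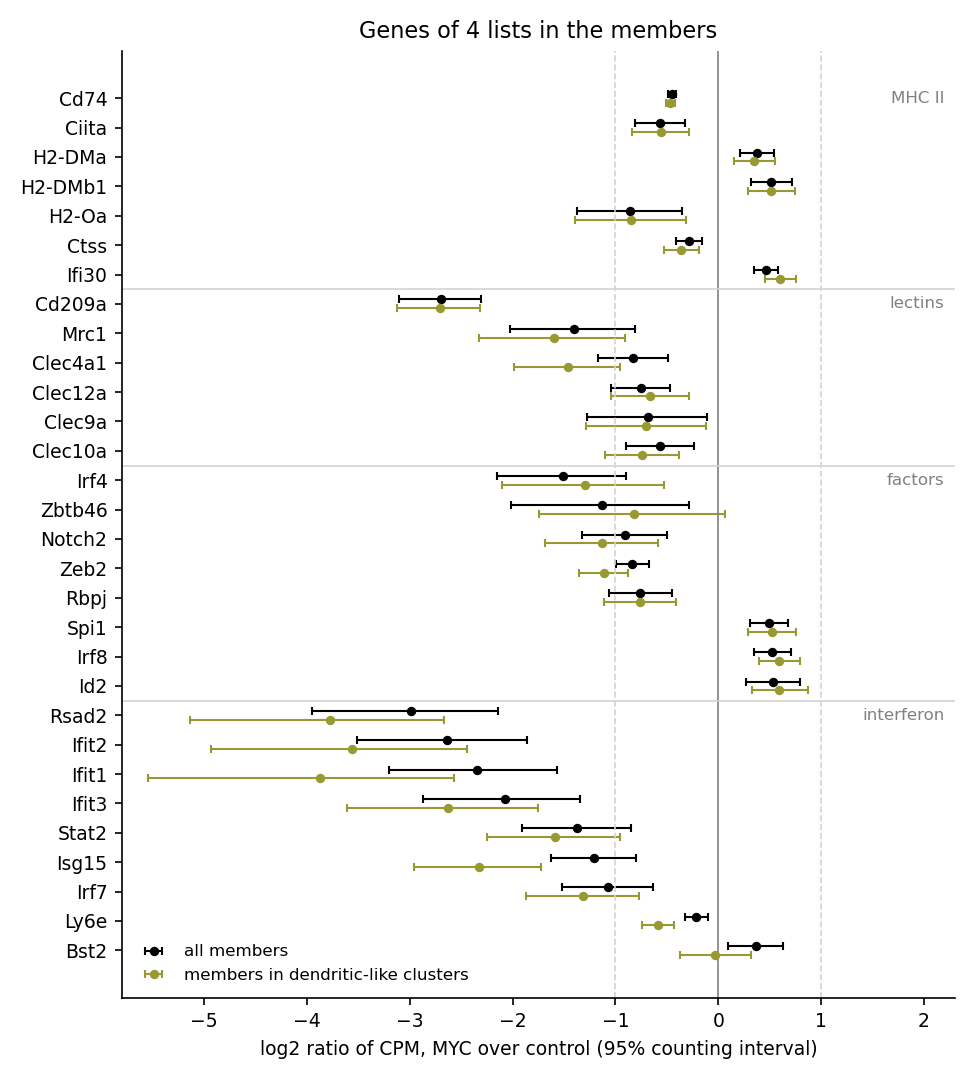
Log2 ratio of CPM in the MYC library over the control (horizontal axis) with 95% counting intervals, for genes of class II presentation, lectins and uptake receptors, transcription factors and the interferon response; black points are all members and olive points the members in dendritic-like clusters, dashed lines mark 2-fold. Cd209a lies at -2.70 in all members, and Rsad2 at -2.99.

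Maturation genes were rare. A UMI of Ccr7, Fscn1 or Ccl22, the genes of migrating mature dendritic cells, was found in 4 control members (3.05%) and 3 of the MYC library (1.92%). The same shares were 0.678% and 0.157% in neutrophil-type and 24.7% and 16.8% in B-type barcodes. All 40 control UMIs of Fscn1 and 33 of 38 of Il4i1 came from 1 cell. Of 7 maturation genes with enough counts, 1 was called lower, against 4.7% of all genes, namely Tnfaip3, an inhibitor of NF-kB signalling, at 33.0 and 13.1 CPM. In the dendritic-like members Tnfaip3 was not called, and 2 of 5 were called lower, Birc3 and Icosl, against 5.86% of all genes. Among 15 chemokines and trafficking receptors 4 were called lower, against 4.7% of all genes, 3 chemokines among them. Cxcl9 was at 64.1 and 16.4 CPM, Cxcl10 at 79.0 and 2.18 CPM and Ccl5 at 38.8 and 7.64 CPM. The chemokines rested on few cells: Cxcl10 had UMIs in 6.11% of control members, and 41 of the 60 control UMIs of Ccl5 were in 1 cell. Ccr2, the monocyte homing receptor that cDC2 also bear, was at 1007 and 664 CPM (-0.60, -0.71 to -0.49).

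Genes of the interferon response, which type I interferon induces through Stat2 and Irf9 among other factors, were called lower in the MYC library for 11 of 24 tested and higher for none, against 4.7% and 3.32% of all genes, with a median of -0.93 (-1.33 to -0.38). Rsad2, encoding the antiviral enzyme viperin, was at 56.3 and 7.09 CPM (-2.99, -3.96 to -2.14). Ifit1 and Ifit2, which block translation of viral RNA or bind it, were at 47.3 and 9.27 CPM and at 54.4 and 8.73 CPM. Isg15, a ubiquitin-like protein, was at 97.1 and 42.0 CPM, Stat2 at 63.4 and 24.5 CPM, and Irf7 at 80.3 and 38.2 CPM. Bst2 had the opposite sign, at 127 and 163 CPM. In the dendritic-like members 17 of 22 were called lower, against 5.86% of all genes, with a median of -1.41 (-2.03 to -1.11) beside 0.03 over all genes. Cluster 2 was led in part by interferon genes and held almost only control members, so leaving it out had to shrink this difference. Without it the median was -0.70, with an interval of -1.05 to 0.085 that includes 0, given as a description.

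Much of this list's RNA was in 1 cluster of the control. Cluster 2, with 26 control members and 1 of the MYC library, held Ifit1 at 248 CPM and Cxcl10 at 495 CPM, and summed over the list it had 8623 CPM in its control members and 11673 CPM in its 1 MYC member, beside 2151 to 3461 CPM in the control members of the other dendritic-like clusters. Within the 6 clusters that held at least 7 members of each library the list's sum had no common direction: it was lower in the MYC library in clusters 0, 4, 7 and 1, with log2 ratios of -0.49, -0.88, -0.55 and -0.13, and higher in clusters 3 (0.35) and 5 (0.34). The interval of cluster 1 included 0. Ifi27l2a and Ly6e gave much of these sums, and without them the list was lower in 3 clusters and higher in 3, cluster 1 among the latter at 0.76. The list was lower in the MYC library in the barcodes gated beside the members as well, with medians of -0.90 in neutrophil-type, -1.15 in classical-monocyte-type, -1.17 in macrophage-type, -1.36 in plasmacytoid-type and -1.48 in nonclassical-monocyte-type barcodes, and of -0.44 (-0.88 to 0.14) in B-type barcodes. Mx1Cre itself is induced by interferon and is in both genotypes, and whether interferon was given to either group is not stated in the labels used here.

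The promoters of interferon genes often hold the core of the interferon-stimulated response element, 2 copies of GAAA with any 2 bases between them, to which the complex that holds Stat2 and Irf9 binds. RefSeq promoter windows of GRCm38.p6, from 250 bases before to 50 after a start, were matched for 21 of the 29 list genes among the features, and 10 of these genes (47.6%) had the core on either strand. Over all 27025 genes with such a window the share was 3.99%. The windows of 4 genes that have the core and were called lower are printed 5′ to 3′ on the gene's strand, with matches on either strand in capitals (TTTC marks the reverse strand). Of the other genes named here, Ifit3 and Stat2 have the core in their windows, and Ifit2, with a log2 ratio of -2.64, has it in neither of its 2 windows. Isg15 has 3 overlapping matches and Ifit1 has 2 separate ones. A match describes the letters of the window and does not show binding.
Rsad2, chr12:26456403-26456702, minus strand: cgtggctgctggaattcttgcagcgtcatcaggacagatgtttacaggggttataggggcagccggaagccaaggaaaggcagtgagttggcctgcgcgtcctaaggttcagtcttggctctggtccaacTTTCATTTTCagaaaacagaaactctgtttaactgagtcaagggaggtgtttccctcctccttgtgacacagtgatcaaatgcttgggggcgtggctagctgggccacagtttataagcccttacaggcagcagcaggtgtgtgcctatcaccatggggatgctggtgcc
Ifit1, chr19:34640639-34640938, plus strand: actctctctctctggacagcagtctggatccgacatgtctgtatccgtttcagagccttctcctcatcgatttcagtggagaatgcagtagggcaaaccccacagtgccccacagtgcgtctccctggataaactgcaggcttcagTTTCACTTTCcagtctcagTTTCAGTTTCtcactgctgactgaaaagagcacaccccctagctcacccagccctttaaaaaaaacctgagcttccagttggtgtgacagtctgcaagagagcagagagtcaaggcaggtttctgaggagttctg
Isg15, chr4:156200769-156201068, minus strand: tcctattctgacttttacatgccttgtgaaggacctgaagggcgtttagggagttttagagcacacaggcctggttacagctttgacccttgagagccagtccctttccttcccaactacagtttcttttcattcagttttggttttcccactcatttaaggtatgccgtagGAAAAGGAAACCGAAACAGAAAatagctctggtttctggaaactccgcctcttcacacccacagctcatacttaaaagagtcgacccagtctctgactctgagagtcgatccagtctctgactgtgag
Cxcl10, chr5:92348840-92349139, minus strand: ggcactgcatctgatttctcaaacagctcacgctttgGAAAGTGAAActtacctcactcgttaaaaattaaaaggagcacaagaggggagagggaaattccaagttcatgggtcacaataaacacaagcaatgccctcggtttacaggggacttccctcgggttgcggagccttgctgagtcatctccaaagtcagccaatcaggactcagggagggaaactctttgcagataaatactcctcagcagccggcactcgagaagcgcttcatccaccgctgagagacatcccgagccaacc

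Ifitm1 went the other way, although its family is also inducible by interferon. This small membrane protein gene, at chr7:140967221-140969825, was at 35.0 CPM in control members and 391 CPM in the MYC library (3.48, 3.08 to 3.91), with a UMI in 9.92% and 57.7% of members. The part of free RNA in these Ifitm1 values was not tested. Ifitm1 was higher in the MYC library in each of the 6 shared clusters, with an interval above 0 in all 6. Rbm3, a cold-inducible RNA-binding protein, was at 322 and 1014 CPM (1.65, 1.51 to 1.80), with medians per member of 253 and 966 CPM, and was likewise higher in all 6 clusters. The smallest log2 ratio of Rbm3 among them was 1.04, in cluster 4, and the largest 2.11, in cluster 1.

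Several genes with large ratios differed between all members and the dendritic-like ones or rested on single cells. Of the 12 named genes that were higher, Elane, Ctsg and Prtn3 encode proteases of neutrophil primary granules, and 503 of 568 MYC UMIs of Elane, 308 of 559 of Ctsg and 515 of 1015 of Prtn3 came from 1 cell each. Without the richest cell of each library Elane was at -0.29 (-0.81 to 0.22), whereas Ctsg (3.55) and Prtn3 (1.99) stayed called. Ctla2a, a protease inhibitor, was at 25.9 and 107 CPM and had 0 UMIs in the dendritic-like members of both libraries. Ptprcap and Serpina3g were called higher in all members, at 1.77 and 1.62, but were at -0.43 and -0.94 in the dendritic-like ones. The replication histones Hist1h1b (322 and 1058 CPM) and Hist1h4d (139 and 470 CPM), the histone H2afx (60.2 and 184 CPM) and the fructose kinase Khk (27.2 and 84.0 CPM) completed this group.

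Erythroid genes made up much of the group with the lowest ratios. Car1 and Car2, carbonic anhydrases of red cells, were at 232 and 8.18 CPM and at 570.3 and 131 CPM, and Cpox and Blvrb, of haem synthesis and breakdown, had log2 ratios of -2.72 and -2.09. In the dendritic-like members Car1 was at -0.26 (-2.17 to 1.64), Cpox at -0.18 (-1.22 to 0.87), Car2 at -0.96 and Blvrb at -0.95. Of the control UMIs, 188 of 358 of Car1 and 92 of 211 of Cpox came from 1 cell each, and both stayed called without the richest cells. All 9 erythroid markers tested were called lower in all members, against 4.7% of all genes, and 1 of 5, Hba-a2, in the dendritic-like ones, against 5.86%. Acp5, an acid phosphatase, was at 295 and 8.73 CPM in all members and at 18.8 and 14.6 CPM in the dendritic-like ones, and 1 cell gave 170 of its 456 control UMIs. Erythroid markers summed to 7627 CPM in control members of the progenitor-like clusters and 1027 CPM in MYC members of them, and 1 cell gave 401 of 881 control UMIs of Car2. Most of these control members were in cluster 5 and most of these MYC members in cluster 8, so the sums compare different mixes of cells. In neutrophil-type barcodes the same markers summed to 6302 and 2018 CPM, and the part of free RNA in the members' values was not tested. Mmp9 (-2.36) and Mns1 (-1.65) were at 0.38 and 0.60 in the dendritic-like members. Of their control UMIs, 83 of 182 of Mmp9 and 70 of 138 of Mns1 came from 1 cell each. Without the richest cell of each library Mns1 was not called (-0.78). Sdc3, a syndecan, at 119 and 37.6 CPM, Tmcc1 at 114 and 36.0 CPM and the non-coding Gm15564 at 140 and 20.7 CPM were called lower in both sets of members. Single cells of other lineages were also among the members: 1 control cell held 109 of 118 UMIs of the basophil protease Mcpt8, and 1 cell of the MYC library 759 of 768 UMIs of the platelet factor Pf4.

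Members with RNA of dividing cells made up a larger share of the MYC library's members, while the summed level of the dividing-cell gene Mki67 was 413 and 417 CPM (0.01, -0.14 to 0.17). At least 2 UMIs of Mki67 and Top2a, which dividing cells express, were found in 39 control members (29.8%, 22.1 to 38.4) and 69 of the MYC library (44.2%, 36.3 to 52.4), and in 14.2% and 30.7% after thinning. The difference was 14.5 points (2.75 to 25.7), but 14.1 points with an interval of -2.08 to 29.3 that includes 0 among members with 0 UMIs of the other types' genes. The same share was 41.7% and 38.5% in neutrophil-type barcodes and 40.9% and 27.2% in B-type barcodes. Of 40 genes of S phase and mitosis, none was called higher and 2 lower in all members (Rrm1 and Cdc6), near the 4.7% of all genes called lower, with a median of 0.28 (0.01 to 0.45). With the mean over cells, which weighs each member alike, that median was 0.81. Among the dendritic-like members 15 of 36 were called higher, against 9.22% of all genes, and none lower, with a median of 0.91 (0.60 to 1.14). Cluster 4 held most Mki67 among the dendritic-like clusters: there Mki67 was at 1237 CPM beside 53.5 CPM in cluster 0, and cluster 4 held 10 control members and 29 of the MYC library.

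Ribosomal protein genes were higher in the MYC library in all members, with a median of 0.78 (0.65 to 0.89) and 17 of 81 called higher against 3.32% of all genes, and in the dendritic-like ones, with a median of 0.86 and 25 of 81 called against 9.22%. Rps18 was at 1519 and 4083 CPM and Rpl32 at 2184 and 5566 CPM. Their sum was higher in the MYC library in each of the 6 shared clusters, by 0.32 to 1.07 on the log2 scale. The median was positive in every other population too, from 0.50 in classical-monocyte-type to 1.07 in macrophage-type and nonclassical-monocyte-type barcodes. MYC-induced genes of ribosome production had a median of 0.03 (-0.05 to 0.31) in all members, with 3 of 53 called higher (Dctpp1, Exosc5 and Nme2), near the 3.32% of all genes, and of 0.59 (0.46 to 0.92) in the dendritic-like ones, with 6 of 29 called higher against 9.22% of all genes. Without Gm42418 in the totals the first median was -0.17, and with the mean over cells it was 0.44. Nuclear genes of oxidative phosphorylation had a median of 0.28 in all members, with 0 of 54 called, against 3.32% of all genes higher and 4.7% lower. Their median was 0.70 in the dendritic-like members, with 8 of 54 called higher against 9.22% of all genes.

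All 7 alarmin genes tested outside the choice, which encode proteins released to signal to immune receptors, were above 0 on the log2 scale, with a median of 0.69 (0.47 to 0.95). None was called in all members, where 3.32% of all genes were called higher. S100a4 was at 1173 and 1628 CPM and S100a11 at 320 and 582 CPM. The nuclear protein gene Hmgb1 was at 557 and 905 CPM, and was the 1 gene of these 7 called higher in the dendritic-like members, against 9.22% of all genes, at 1.04 (0.86 to 1.22). S100a8 and S100a9 entered the choice and are not counted here. Neutrophil-type barcodes made up 55.7% and 60.2% of the libraries, S100a8 and S100a9 took a median of 7.44% and 14.2% of UMIs over all barcodes over the limits, and the part of their free RNA in the members was not tested. Among lysosomal genes, Psap, encoding the precursor of saposins, was at 2020 and 1053 CPM (-0.94, -1.02 to -0.86) and was lower in all 6 shared clusters, with an interval below 0 in 5. Cst3, an inhibitor of cathepsins typical of dendritic cells, was at 1719 and 2719 CPM (0.66, 0.59 to 0.73), with 3 clusters in each direction. Of 18 lysosomal genes tested, 2 were called lower (Cd63 and Ctsd) and 1 higher (Ctsl), against 4.7% and 3.32% of all genes. In the dendritic-like members only Cd63 was called, 1 of 17, near the 5.86% of all genes called lower.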

How the data were processed

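The deposited files hold UMI counts, 1 whole number for each gene in each barcode. Per the file headers the authors used Cell Ranger 6.0.0, and the submitters' processing notes name Cell Ranger 6.0, Seurat, GRCm38 and mm10. The cell-calling settings are not given in the sources used here. The libraries hold 131884603 (control) and 110012176 (MYC) UMIs. Members and gene lists were chosen with earlier results of these data known.

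UMIs of the members were summed per library and given as CPM. Intervals are at 95%: exact conditional binomial for ratios, Clopper-Pearson for shares and Newcombe for differences of shares; PCR and single cells are not replicates, so they cover counting error only. List medians are over genes with 50 or more UMIs, of log2 ratios after adding 1 CPM to both levels, and carry order-statistic intervals. Barcodes gated beside the members, each after the former, had S100a8 and S100a9 at 5% of UMIs or more (neutrophil-type), at least 4 UMIs of Cd79a, Cd79b and Ms4a1 (B-type), 6 of C1q (macrophage-type), 2 of Siglech (plasmacytoid-type), 2 of Ace and Adgre4 (nonclassical monocyte-type) or 3 of Ly6c2, F13a1 and Ccr2 (classical monocyte-type).

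Members were clustered in scanpy 1.11.5 (Leiden, resolution 1, seed 0, 15 neighbours, 20 principal components of 2000 variable genes). A cluster was named for the class with most markers among its 10 leading genes, if at least 2 were there and at least 3 were detected in 25% of its cells; these limits were chosen with the data in view. Scrublet scored doublets; none were removed. Nothing was corrected for free RNA. Alternatives changed the limits on cells and genes, the scaling, the pseudocount, depth by thinning and the cells left out. The interval code was tested on simulated data. Gene positions are from GENCODE vM21 (GRCm38), matched by identifier, and are of genes as a whole.

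The genes named were, of those called, the 12 of largest and the 12 of smallest ratio with a mean of at least 50 CPM and a UMI in 10% of the members of the higher library, leaving out immunoglobulin, T-cell receptor, haemoglobin, mitochondrial, sex-linked and choice genes; the 20 that led members over other barcodes; the dendritic, class II, factor, lectin, maturation and receptor lists; and the extremes of the other lists. Not all of these are printed, and some are not reported here. Gm42418, Mcpt8, Pf4 and the genes given by cluster were singled out after their values were seen.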

Additional observations from a re-analysis of the deposited data

Results flagged for a closer look

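The share of members was 1.5 times as high in the MYC library as in the control, whereas the share of plasmacytoid-type barcodes, the other dendritic population gated here, was 0.308 times as high (1.91% and 0.588%). It drew attention because the only library of each genotype moved the members one way and the plasmacytoid-type barcodes the other way. The difference between the populations was not tested, and with 1 library per group it cannot be. Both gates use Siglech, a single barcode enters only 1 of them, and the members named dendritic-like alone differed by an amount whose interval includes 0.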

How the results depend on the processing

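With 1 library per group, a difference of genotype has no replicate check, and depth limits calls to genes with 50 or more UMIs. No paired analysis was possible, since each group has only 1 library. Settings added after seeing the data left out the 10% highest doublet scores, cluster 2 or Gm42418. Since cluster 2 was led in part by interferon genes, the interferon values without it are a description and no check. Cd209a kept its sign under every setting tried.

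The difference in share was 0.206 points in the dendritic-like clusters and 0.331 to 0.608 under the other settings. The 221 higher and 313 lower calls became 425 higher (under 5% mitochondrial UMIs), 381 higher (dendritic-like), 347 higher (mean over cells), 117 and 548 (20 most abundant genes out of the totals), 112 and 61 (thinned), 110 and 562 (Gm42418 out), 372 and 575 (at least 20 UMIs), 79 and 46 (at least 200), 475 and 734 (no filter), and 164 lower in the dendritic-like clusters without cluster 2. The all-gene median turned to 0.012 (at least 10 class II UMIs, and under 5% mitochondrial), 0.032 (dendritic-like), 0.061 (those without cluster 2), 0 (median-of-ratios), 0.018 (mean over cells), 0.17 (thinned) and 0.041 (at least 200 UMIs).

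Under 5% mitochondrial UMIs the medians were -0.60 for class II, 0.55 for MYC-induced, 0.51 for S phase and mitosis and 0.96 for ribosomal protein genes. In the dendritic-like clusters they were -1.41 for interferon, 0.59 for MYC-induced and 0.91 for S phase and mitosis genes; without cluster 2 they were -0.70 (-1.05 to 0.085) for interferon, -0.39 for lectin, 0.52 for MYC-induced, 0.56 for S phase and mitosis and 0.12 for lysosomal genes, the last with its sign turned. Over cells they were 0.44, 0.81 and 0.91, and thinned 0.83, 0.89 and 0.90, for MYC-induced, S phase and mitosis and ribosomal protein genes. MYC-induced genes had 0.50 with at least 10 class II UMIs, -0.057 with 0 UMIs of other types' genes, -0.16 without the 20 genes and -0.17 without Gm42418, where ribosomal protein genes had 0.59 and 0.58. Without high doublet scores S phase and mitosis genes had 0.48. The class II median had its sign turned at 0.11 with 0 UMIs of other types' genes and at 0.043 with at least 200 UMIs. The median sign also turned under at least 1 setting for Fc receptor, MHC class I, cytokine receptor and pattern recognition genes. Thinned, interferon genes had -0.73 (-1.49 to 0.70). The cause of these shifts was not tested. Thinned, or at 200 UMIs, the maturation list gave no value.

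Among genes called in all members, signs turned for Ptprcap (-0.43 in dendritic-like clusters, -0.54 without cluster 2), Serpina3g (-0.94, -0.53), Mmp9 (0.38, 0.32), Mns1 (0.60, 0.12) and Elane (-0.92 without high doublet scores, -0.29 without the richest cells). Among genes not called, the sign turned under at least 1 setting for Flt3, Mki67, Top2a, Csf1r, Ctss, H2-Ab1, H2-DMb1, Clec4a3 and Clec10a.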
